A study of Mus musculus with 10 samples.

Results

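The genes that produce and load peptides for MHC class I molecules were examined in skin of grafted C3H/HeJ mice at week 12. They were taken by name: B2m, Tap1, Tap2, Tapbp, Nlrc5, Psmb8, Psmb9, Psmb10, Psme1 and Psme2, 10 genes in all. Every probe set that carried exactly 1 of these symbols in the platform annotation was used, which gave 15 probe sets for 9 genes out of 45037 probe sets and 18193 genes. Psme2 shared its probe set with Psme2b in that annotation and was not analysed here. All mice belonged to the inbred strain C3H/HeJ and had received skin from an affected donor of the same strain, which transfers alopecia areata (AA), an autoimmune loss of hair. An osmotic pump placed at grafting delivered baricitinib, which blocks JAK1 and JAK2, to 5 mice and vehicle to the other 5. Each mouse gave 1 array, and ungrafted or untreated skin was not analysed here. The study asked how JAK inhibition begun before hair loss altered the inflamed skin, in which class I expression is a sign that the hair follicle has lost its immune privilege.

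Levels are RMA values in log2 units. Differences are baricitinib minus vehicle in the same units, where -1 stands for a halving of the signal. Epidermal keratins identified the tissue as skin: Krt5, of basal keratinocytes, was between 13.04 and 13.67 on every array. Vehicle replicate 5 stood apart from the rest, with a median Pearson r with the other arrays of 0.705 against 0.959 to 0.981 for the other 9. The study's methods removed 1 vehicle array after quality control, but the labels do not say which, so results are given with all 10 arrays and without vehicle replicate 5. RNA quality was read from the gap between the 3' and 5' control probe sets of Gapdh and beta-actin. It was 0.99 to 1.18 in baricitinib treated skin. In the vehicle group it was 1.01 for replicate 4 and 2.0 to 4.35 for the other 4 arrays (4.06 for replicate 5). The gap thus differed between the groups. A fit with the gap as a covariate is given with the processing alternatives below. It rested on the vehicle arrays, so the parts of RNA quality and treatment cannot be told apart.

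MHC class I molecules show fragments of a cell's own proteins to CD8+ T cells. Fragments are cut by the proteasome, which under interferon exchanges its standard catalytic subunits for Psmb8, Psmb9 and Psmb10 to form the immunoproteasome, and which the PA28 activator, made of Psme1 and Psme2, helps to open. The transporter of Tap1 and Tap2 carries the peptides into the endoplasmic reticulum, where tapasin, encoded by Tapbp, holds empty class I molecules next to it. B2m encodes beta-2 microglobulin, the light chain of every class I molecule, and Nlrc5 encodes the transactivator that drives transcription of class I genes. Interferon gamma, which signals through JAK1 and JAK2, is a known inducer of most of this pathway.

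Several of these genes lie side by side. In RefSeq (GRCm38.p6) Psmb9, Tap1, Psmb8 and Tap2 are consecutive protein-coding genes on chromosome 17, and Psmb9 and Tap1 are transcribed away from each other from 1 shared stretch. Promoter windows from 250 bases before to 50 bases after the start were at hand for 8 of the 10 genes, in 9 windows, and were searched on both strands for 3 motifs. These were GAAA repeated after any 2 bases, a form of the interferon-stimulated response element, TTCNNNGAA, the form bound by STAT dimers, and GGGA followed after any 1 base by TTTCC, a form of the NF-kappaB site. Below are the bases before the B2m and Psmb8 starts, shown because they hold matches (in capitals), and the stretch between the Psmb9 and Tap1 starts, shown because both genes share it. All are from the plus strand of the RefSeq genome, which is of another strain.
B2m, chr2:122147437-122147686: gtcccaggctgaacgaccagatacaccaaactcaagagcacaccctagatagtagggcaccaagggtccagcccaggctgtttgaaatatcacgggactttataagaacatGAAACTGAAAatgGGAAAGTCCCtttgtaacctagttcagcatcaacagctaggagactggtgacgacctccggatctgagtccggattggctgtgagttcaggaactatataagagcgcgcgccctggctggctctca
Psmb8, chr17:34197945-34198194: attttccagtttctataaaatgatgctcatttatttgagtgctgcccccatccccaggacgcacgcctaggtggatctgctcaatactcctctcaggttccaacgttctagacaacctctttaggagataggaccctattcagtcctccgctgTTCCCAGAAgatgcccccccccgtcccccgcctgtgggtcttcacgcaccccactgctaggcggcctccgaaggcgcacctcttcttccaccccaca
Psmb9 and Tap1, chr17:34187331-34187555: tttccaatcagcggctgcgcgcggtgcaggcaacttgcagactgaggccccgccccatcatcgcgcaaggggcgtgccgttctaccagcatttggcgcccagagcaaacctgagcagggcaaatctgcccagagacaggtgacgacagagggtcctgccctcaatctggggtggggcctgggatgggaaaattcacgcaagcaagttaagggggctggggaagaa
B2m held 1 match to the interferon element and, a few bases on, 1 to the NF-kappaB form. Psmb8 held 1 match to the STAT form, and a further match to the interferon element lay 9 bases after the Psme1 start. Over all 32851 windows these motifs were found in 3.44% (interferon element), 8.30% (STAT) and 0.411% (NF-kappaB). The windows of Tap1, Psmb9, Psmb10, Tapbp and Psme2 held none of these letters, which says nothing of sites elsewhere. A match is a description of the letters and not of binding.

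In limma 0 of the 15 probe sets had an adjusted p under 0.05, as had 0 of all 45037 (0%), with all arrays and without vehicle replicate 5 alike. With all arrays 10 of the 15 had a negative difference, against 55.4% of all probe sets, and 2 were lower at an unadjusted p under 0.05, against a background of 5.62% (14.8% in either direction). These were Nlrc5 and the dimmer Psmb8 probe set. Without vehicle replicate 5 all 15 had a negative difference, against 54.9% of all probe sets. Of these, 6 were lower at an unadjusted p under 0.05, against 13.5%, and 0 were higher, against 14.4% (27.9% in either direction). The 6 lower ones were both B2m probe sets, the brightest probe sets of Tap1 and Tapbp, Nlrc5 and the dimmer Psmb8 probe set. With all arrays 0 were higher as well, against 9.21%. The median difference of the 15 probe sets was -0.16 with all arrays and -0.38 without that array, while the median of all probe sets was -0.07 and -0.04. Some genes had several probe sets, and some of these were dim. By the brightest probe set of each gene, 5 of 9 were negative with all arrays, with a median of -0.06. Of the 9, 1 was lower at a limma unadjusted p under 0.05. Without vehicle replicate 5 these figures were 9 of 9, a median of -0.72, and 4. The 15 probe sets were read on the same arrays and are not independent. Fewer cells that express these genes and less RNA per cell cannot be told apart in whole skin. With array weights, which gave vehicle replicate 5 a weight of 0.03, 4 of the 15 passed, each with lower values in baricitinib treated skin. Of all probe sets 9676 (21.5%) passed as well, 4756 of them with lower values.

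**Figure D1:**
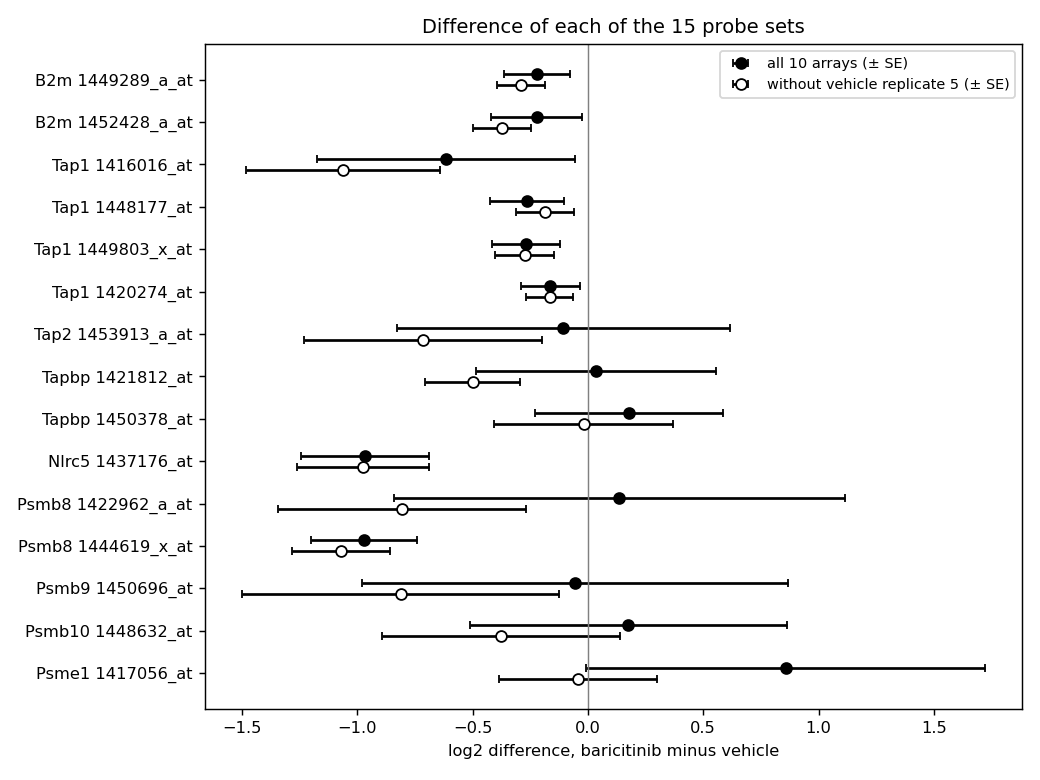
Log2 difference, baricitinib minus vehicle, of each of the 15 probe sets with its limma standard error, from all 10 arrays as filled points and from the 9 arrays left without vehicle replicate 5 as open points. All open points lie below 0, and the differences of Nlrc5 and Psmb8 1444619_x_at hardly depend on that array.

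The mice of the baricitinib group differed widely, with the same mice at both extremes. Among the brightest probe sets of the 9 genes, baricitinib replicate 2 was the lowest and baricitinib replicate 5 the highest baricitinib array for 9 of 9. Of all 18193 genes 7.07% showed these extremes, which were singled out after the values were seen. The full order of baricitinib replicates 2, 1, 3, 4 and 5, from lowest to highest, held for 8 of the 9 genes (2.41% of all genes). It too was picked after the values were seen. Baricitinib replicate 5 was above the lowest of vehicle replicates 1 to 4 for 8 genes (75.7% of all genes) and above their mean for 7 (42.0%). In the vehicle group, vehicle replicate 5 was the lowest of all 10 arrays for 6 genes (47.9% of all genes). In 6 genes the top vehicle value was that of vehicle replicate 4, and the share of all genes with this was not computed.

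B2m, the light chain gene, was among the brightest probe sets of the array and differed little but evenly. Its brighter probe set (1449289_a_at) was at 13.37, 13.25, 13.48, 13.47 and 13.66 in baricitinib replicates 1 to 5 and at 13.73, 13.71, 13.80, 13.70 and 13.40 in vehicle replicates 1 to 5. Every baricitinib array was thus below vehicle replicates 1 to 4, and vehicle replicate 5 fell inside the baricitinib range. The difference was -0.22 ± 0.14 (SE, limma adjusted p = 0.436) and -0.29 ± 0.10 without vehicle replicate 5 (limma adjusted p = 0.124). The second B2m probe set (1452428_a_at) gave -0.22 and -0.37 and also did not overlap once that array was left out. Without it the groups did not overlap, with lower values in baricitinib treated skin, at 3 of the 15 probe sets, against 4.11% of all probe sets. The third was the dimmer Psmb8 probe set, which with all arrays was the only one of the 15 to do so (2.03% of all probe sets). No probe set of the 15 lay wholly higher in baricitinib treated skin, against 3.09% of all with all arrays and 4.42% without vehicle replicate 5.

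The peptide transporter showed larger gaps between mice. Tap1 (1416016_at) was at 9.52, 8.71, 9.96, 10.23 and 11.16 in baricitinib replicates 1 to 5 and at 10.87, 11.09, 10.57, 11.38 and 8.74 in vehicle replicates 1 to 5. Baricitinib replicates 1 to 4 lay below vehicle replicates 1 to 4, baricitinib replicate 5 lay among them, and vehicle replicate 5 was as low as the lowest baricitinib array. The difference was -0.62 ± 0.56 and -1.06 ± 0.42 without vehicle replicate 5 (limma adjusted p = 0.527 and 0.144). The other 3 Tap1 probe sets were dim, with group means between 2.06 and 5.92, and their differences were -0.27, -0.27 and -0.16.

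Tap2, the partner subunit, repeated the order of Tap1 in the baricitinib group. It was at 8.45, 7.61, 8.87, 9.39 and 10.44 in baricitinib replicates 1 to 5 and at 9.44, 9.75, 9.03, 10.44 and 6.63 in vehicle replicates 1 to 5. The groups overlapped, and vehicle replicate 5 was the lowest of all arrays. The Tap2 difference was -0.11 ± 0.72 (limma adjusted p = 0.936) and -0.72 ± 0.52 without that array.

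Tapasin was bright, and lowest on vehicle replicate 5. Tapbp (1421812_at) was at 12.29, 11.95, 12.38, 12.62 and 13.08 in baricitinib replicates 1 to 5, and at 12.80, 13.11, 12.87, 13.08 and 10.28 in vehicle replicates 1 to 5. The difference was 0.04 ± 0.52 with that array and -0.50 ± 0.21 without it (limma adjusted p = 0.970 and 0.157). It was also below 0 when baricitinib replicate 4 or baricitinib replicate 5 was left out. The second Tapbp probe set (1450378_at), with group means of 6.28 and 6.10, differed by 0.18 and -0.02.

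**Figure D2:**
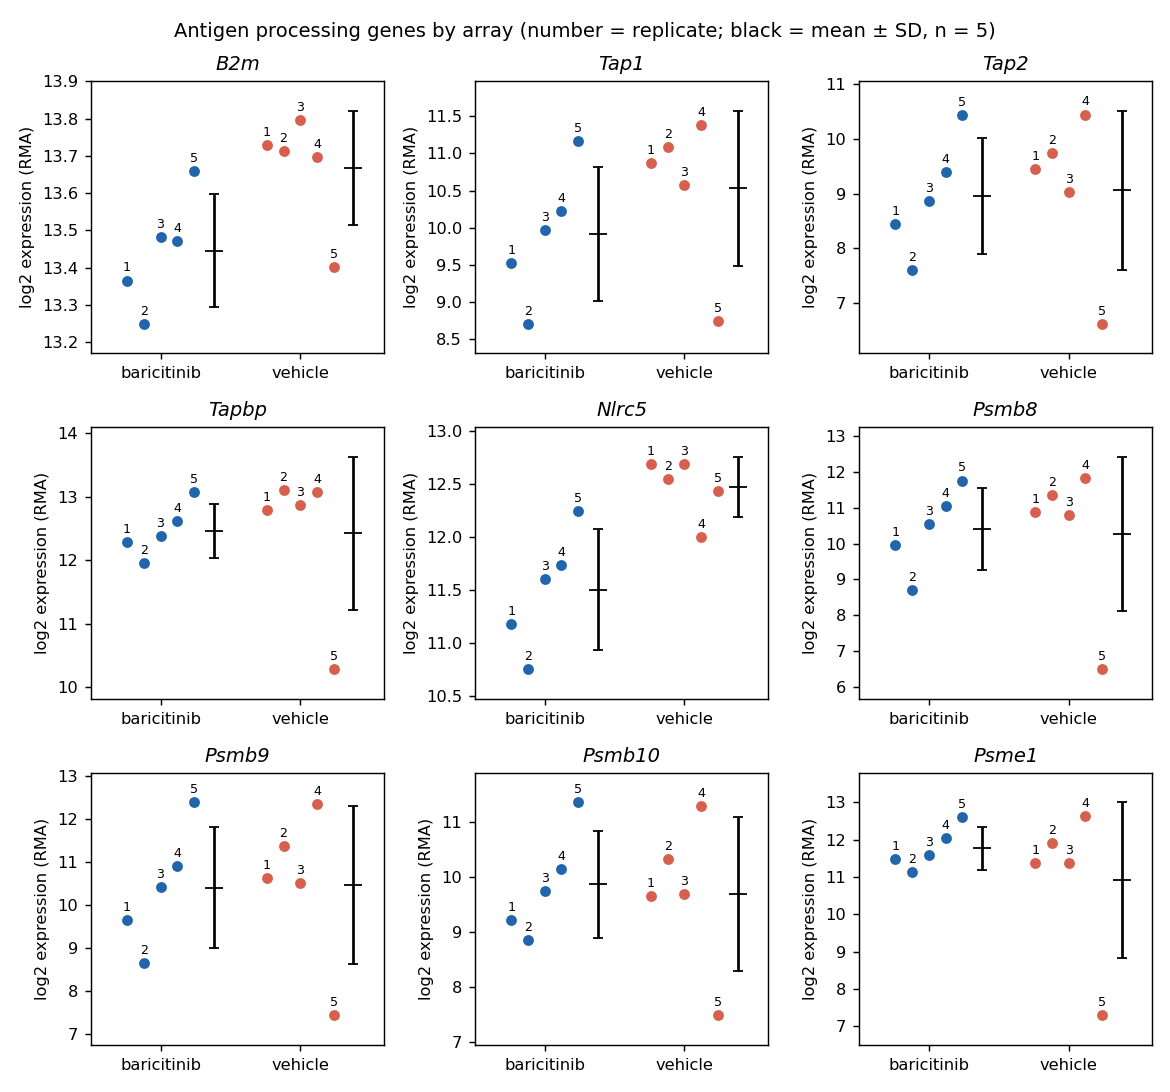
Log2 expression of the brightest probe set of each of the 9 genes in baricitinib treated (blue) and vehicle control (red) mice, with points numbered by replicate and the mean ± SD in black (n = 5). Baricitinib replicate 2 is the lowest and replicate 5 the highest blue point in each panel, and vehicle replicate 5 is far below the other vehicle arrays for most genes, as for Psmb8 (6.50 against 10.80 to 11.84).

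The 3 immunoproteasome subunits varied widely between mice. Psmb8, the chymotrypsin-like subunit, was at 9.97, 8.71, 10.55, 11.06 and 11.76 in baricitinib replicates 1 to 5 and at 10.87, 11.36, 10.80, 11.84 and 6.50 in vehicle replicates 1 to 5 (1422962_a_at). From the lowest to the highest baricitinib array this spanned 3.05 log2, and the highest was level with vehicle replicate 4. The difference was 0.14 ± 0.98 with all arrays and -0.81 ± 0.54 without vehicle replicate 5 (limma adjusted p = 0.940 and 0.339).

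The dimmer Psmb8 probe set (1444619_x_at) disagreed with the bright one over vehicle replicate 5. It was at 3.83, 3.46, 4.25, 4.31 and 4.61 in baricitinib replicates 1 to 5 and at 5.10, 5.14, 5.29, 5.13 and 4.67 in vehicle replicates 1 to 5. Every baricitinib array was below every vehicle array. The difference was -0.97 ± 0.23 and -1.07 ± 0.21 without vehicle replicate 5 (limma adjusted p = 0.222 and 0.0733). Probe sets with the suffix x_at may match further transcripts, and this one is not certain to read Psmb8 alone.

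Psmb9, transcribed next to Tap1, had the widest range of the 9 genes in the baricitinib group. It was at 9.65, 8.65, 10.42, 10.91 and 12.38 in baricitinib replicates 1 to 5 and at 10.63, 11.37, 10.51, 12.33 and 7.44 in vehicle replicates 1 to 5. Baricitinib replicate 5 was the highest of all arrays, and 3 baricitinib arrays were below vehicle replicates 1 to 4. The difference was -0.06 ± 0.92 and -0.81 ± 0.69 without vehicle replicate 5 (limma adjusted p = 0.973 and 0.448).

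Psmb10, the third induced subunit, and Psme1, a subunit of the PA28 activator, showed little separation of the groups. Psmb10 was at 9.21, 8.86, 9.75, 10.15 and 11.36 in baricitinib replicates 1 to 5 and at 9.65, 10.32, 9.69, 11.30 and 7.49 in vehicle replicates 1 to 5. Psme1 was at 11.47, 11.13, 11.60, 12.05 and 12.61, and at 11.37, 11.90, 11.37, 12.62 and 7.30. For both genes the baricitinib values ran through the range of vehicle replicates 1 to 4. Without vehicle replicate 5 the differences were -0.38 ± 0.52 for Psmb10 and -0.04 ± 0.34 for Psme1 (limma adjusted p = 0.646 and 0.944), against 0.17 and 0.86 with it.

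Nlrc5, the class I transactivator, had the largest difference among the brightest probe sets with all arrays, and it did not depend on vehicle replicate 5. It was at 11.18, 10.75, 11.61, 11.73 and 12.25 in baricitinib replicates 1 to 5 and at 12.69, 12.54, 12.69, 12.00 and 12.43 in vehicle replicates 1 to 5. Here vehicle replicate 5 was within the range of the other vehicle arrays. Baricitinib replicates 1 to 4 were below every vehicle array, and baricitinib replicate 5 was above vehicle replicate 4 alone. The means were 11.50 ± 0.57 and 12.47 ± 0.29 (SD, n = 5), a difference of -0.97 ± 0.28 (SE, limma adjusted p = 0.230), and without vehicle replicate 5 it was -0.98 ± 0.29 (limma adjusted p = 0.0903). Vehicle replicate 4, the vehicle array whose 3'/5' gap was as small as in the baricitinib group, was the lowest vehicle array for Nlrc5 but the highest for Tap1, Tap2, Psmb8, Psmb9, Psmb10 and Psme1.

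The immunoproteasome subunits were next set against the standard subunits they replace, Psmb5 for Psmb8, Psmb6 for Psmb9 and Psmb7 for Psmb10. The standard subunits had positive differences, of 1.47, 1.36 and 1.09 with all arrays and 0.49, 0.68 and 0.38 without vehicle replicate 5, and none passed the adjusted threshold. For each array the log2 value of the standard subunit was subtracted from that of its induced counterpart. This quantity compares change between mice and not the amounts of the 2 proteins. For Psmb8 minus Psmb5 it was -1.85, -3.21, -0.87, -0.16 and 0.01 in baricitinib replicates 1 to 5 and -0.01, -0.24, 0.59, -0.03 and 0.29 in vehicle replicates 1 to 5. Vehicle replicate 5 was here within the range of the other vehicle arrays. The 2 vehicle arrays with the widest 3'/5' gaps, replicates 3 and 5, had the 2 highest values of this quantity, and the part of RNA quality in it was not tested.

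For Psmb9 minus Psmb6, baricitinib replicates 1 to 4 were at -2.51, -3.52, -1.68 and -1.15, below all vehicle arrays (-0.62 to 0.01), and baricitinib replicate 5 was at 0.17. For Psmb10 minus Psmb7, baricitinib replicates 1 to 3 were at -2.39, -2.83 and -1.76, below the vehicle range of -1.31 to -0.14, and baricitinib replicates 4 and 5 were within it at -1.20 and -0.21. The 3 differences between groups were -1.34, -1.42 and -0.91 (exact permutation p = 0.0556, 0.0556 and 0.127, two-sided, 252 assignments, smallest possible p 0.00794; adjusted over the 3 pairs 0.0833, 0.0833 and 0.127). Without vehicle replicate 5 they were -1.29, -1.50 and -0.76 (exact permutation adjusted p = 0.155, 0.155 and 0.222). Thus none passed, either with all arrays or without that array. Baricitinib replicate 5 was the 1 array whose omission took all 3 past the threshold, at -1.64, -1.90 and -1.28 (exact permutation adjusted p = 0.0159 for each).

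**Figure D3:**
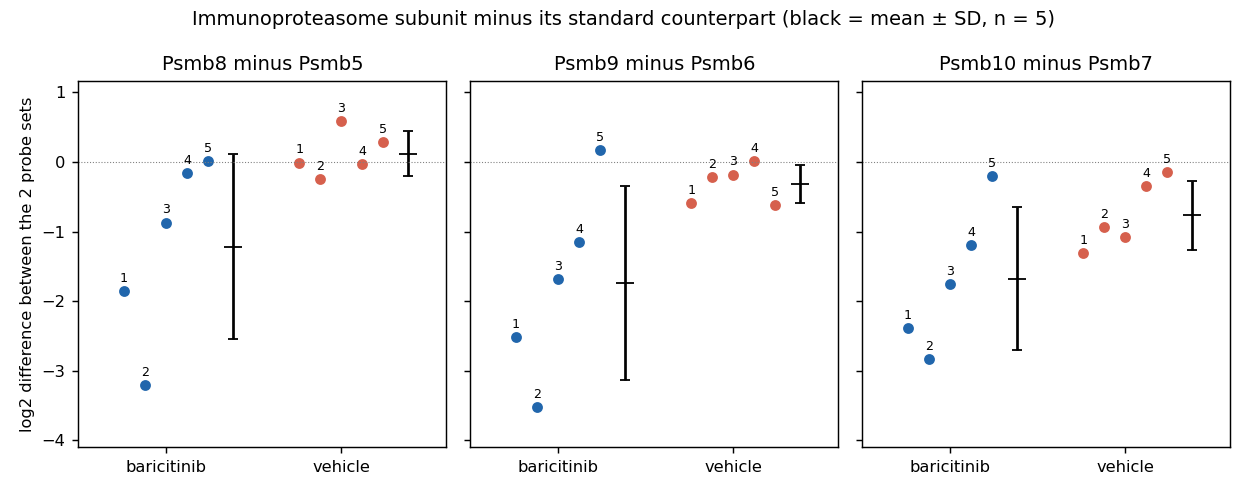
For each array, the log2 value of an immunoproteasome subunit minus that of the standard subunit it replaces, in baricitinib treated (blue) and vehicle control (red) mice, with mean ± SD in black (n = 5). The vehicle arrays lie between -1.31 and 0.59 over the 3 panels, while the baricitinib arrays run from -3.52 to 0.17.

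The heavy chains are the proteins that B2m and the loading complex serve. Of 18 listed class I heavy chain genes 7 had a probe set of their own, and 6 of 7 had a negative difference (median -0.49), or 7 of 7 without vehicle replicate 5 (median -0.85). Over all probe sets the negative shares were 55.4% and 54.9%. These shares, here and below, count every probe set, while each listed gene was read by its brightest. The share of negative differences by the brightest probe set of every gene is not given here. With 1 probe set per gene the median difference of all 18193 genes was 0.005 with all arrays. H2-K1, 1 of the classical class I molecules, was at 9.96, 9.16, 10.58, 10.81 and 11.55 in baricitinib replicates 1 to 5 and at 11.21, 11.24, 11.10, 11.71 and 7.91 in vehicle replicates 1 to 5. Its order within the baricitinib group was that of Tap1, and the difference was -0.23, or -0.91 without vehicle replicate 5. H2-D1, the other classical molecule, differed by -0.49 and -0.85, and the non-classical H2-M3 and H2-T24 by -0.79 and -1.10 and by -0.88 and -0.99. H2-T3, which was dim and highest in vehicle replicate 5, differed by -0.50 and -0.29, and the still dimmer H2-Q2 by -0.14 and -0.13. H2-Q10 differed by 0.05 and -0.13. These genes are near-identical to each other and polymorphic between strains, and cross-hybridisation of their probe sets was not tested.

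The rest of the pathway had differences of both signs. Over all probe sets 55.4% were negative with all arrays and 54.9% without vehicle replicate 5. Probe sets with a mean of at least 5 log2 had a median difference of 0.16 with all arrays. Of 12 listed 20S core genes (Pomp, the assembly chaperone, included) 9 had a positive difference with all arrays and 8 without vehicle replicate 5, with medians of 0.46 and 0.11. The largest were those of Psmb1 (1.20 and 0.32), Psmb2 (1.20 and 0.65) and Pomp (0.82 and 0.29). Of 11 chaperone, trimming and transport genes 7 had a positive difference with all arrays and 5 without that array, with medians of 0.19 and -0.10. Pdia3, a disulphide isomerase of the loading complex, differed by 1.74 and 0.78, and the peptidase gene Lap3 by 1.21 and 0.50. Erap1, which trims peptides in the endoplasmic reticulum, differed by -0.84 and -1.45, and without vehicle replicate 5 its limma adjusted p was 0.0738. Of the other proteasome activators, Psme3 differed by 1.12 and 0.23 and Psme4 by -0.36 and -0.41. No gene of these lists passed over all probe sets in either fit.

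Among 13 measured regulators of class I genes 6 had a negative difference with all arrays, against 55.4% of all probe sets. Their median was 0.10 (0.02 without vehicle replicate 5). Irf1, an interferon-induced transcription factor that acts on class I and Tap1 promoters, was at 8.70, 8.14, 9.06, 9.73 and 11.33 in baricitinib replicates 1 to 5 and at 10.40, 10.99, 10.80, 11.42 and 8.63 in vehicle replicates 1 to 5. It followed the order of Tap1 in the baricitinib group and differed by -1.05, or -1.51 without vehicle replicate 5. Rela, an NF-kappaB subunit, differed by 0.95 and 0.08, and Rfxank, a subunit of the RFX complex that binds MHC promoters, by 0.72 and 0.47.

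Of the class I and interferon lists, the genes that report interferon gamma had the largest median difference. Of 12 measured, 11 had a negative difference with and without vehicle replicate 5, against 55.4% and 54.9% of all probe sets. The medians were -1.96 and -2.54. Cxcl10, Cxcl9 and Ifng itself differed by -3.15, -3.04 and -2.79. The median level of these genes was 7.43, 6.83, 7.80, 8.88 and 11.42 in baricitinib replicates 1 to 5 and between 10.87 and 11.47 in the vehicle group, save for 7.58 in vehicle replicate 5. The order of the baricitinib mice in this median was again that of Tap1, Psmb8 and Psmb9. The share of 2.41% of all genes with this order counts single genes and is no background for a median.

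**Figure D4:**
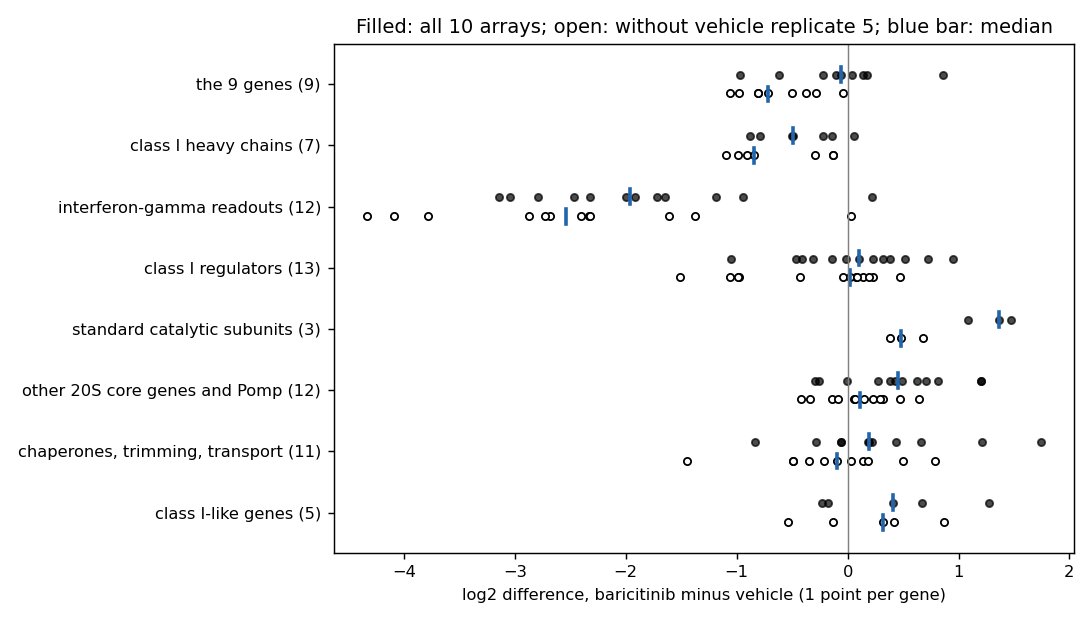
Log2 difference, baricitinib minus vehicle, of each measured gene in 8 groups of class I and interferon genes (1 point per gene, number of genes in parentheses), from all 10 arrays as filled points and from the 9 arrays left without vehicle replicate 5 as open points, and the median as a blue bar. Among these groups the interferon-gamma readouts lie furthest to the left, with medians of -1.96 and -2.54, and the standard catalytic subunits furthest to the right, with medians of 1.36 and 0.49.

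Markers of leukocytes differed in part in the same direction, where 55.4% of all probe sets had a negative difference with all arrays. Of 11 measured T and NK cell markers 10 had a negative difference (median -0.79), and their median level was 5.39 to 6.77 in baricitinib treated skin, with baricitinib replicate 5 the highest, and 5.57 to 6.89 in the vehicle group, with vehicle replicate 5 the lowest. Cd8a, the CD8 chain of the T cells that read class I, was at 4.22, 4.93, 4.67, 4.56 and 10.02 in baricitinib replicates 1 to 5 and at 10.65, 11.03, 10.72, 10.17 and 4.81 in vehicle replicates 1 to 5. Baricitinib replicate 5 was thus near vehicle replicates 1 to 4, and vehicle replicate 5 near the other baricitinib arrays. The Cd8a difference was -3.80, or -4.96 without vehicle replicate 5 (limma adjusted p = 0.286 and 0.0733). Of 10 myeloid and pan-leukocyte markers 6 had a negative difference (median -0.29). The largest were those of Itgax, of dendritic cells, at -1.37, the pan-leukocyte gene Ptprc at -1.08 and Lyz2, of macrophages and neutrophils, at 0.93. With all arrays Cd68, Flt3 and Cd14 were also positive (0.85, 0.62 and 0.56). Ptprc was at 10.04, 9.24, 10.42, 9.98 and 10.76 in baricitinib replicates 1 to 5 and between 10.80 and 11.82 in the vehicle arrays, which did not overlap with them. The 3 measured B cell markers had negative differences (median -0.79), though vehicle replicate 5 was the highest array for Ms4a1 (7.27). Of 8 keratinocyte markers 6 were negative (median -0.33), 5 of 6 fibroblast markers were positive (median 0.33), as were 4 of 5 skeletal muscle markers (0.92) and 4 of 4 adipocyte markers (2.06). The part of cell composition in the values of the 9 genes was not tested.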

How the data were processed

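Amplified, biotin labelled skin RNA (NuGen reagents) was read on Affymetrix Mouse Genome arrays, 1 array per mouse, 5 per group. The authors deposited log2 expression values per probe set, made with RMA for this experiment alone; its version is not given in the sources used here. RMA normalises the arrays to each other (means 6.43 to 6.45), so a level is relative to the other genes of its array. The SD of the values within an array was 2.28 for vehicle replicate 5 and 2.71 to 2.79 for the other arrays. Precision is limited by the number of arrays.

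Groups and replicate numbers came from the sample titles. Without the 64 control probe sets 45037 were left, which were fitted with no filter, of which 34945 had 1 symbol, 932 several and 9160 none. Only those with 1 symbol were named. The groups were compared with limma 3.58.1 in R 4.3.3 (linear model with moderated variances, two-sided, adjusted over all 45037 by Benjamini-Hochberg, threshold 0.05). Pairs of subunits were compared with an exact permutation test of the group means. In other lists a gene was represented by its brightest probe set, while the negative shares beside them are over all probe sets. Named were every probe set of the 10 genes, each standard catalytic subunit and heavy chain, up to 3 genes of each other list by size of difference, and the 5 genes nearest in profile. Others named were chosen after their values were seen. The members and lists were chosen with earlier results of these data known. On simulated data with the spread of these arrays, limma recovered 13% of 100 probe sets lowered by 1 log2 unit and 65% of 100 lowered by 2, among 45037. Promoter sequences came from RefSeq (GRCm38.p6). Planned protein alignments were not run here.

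Same-numbered arrays were not paired: the correlation of their deviations from the group means was between -0.23 and 0.09 over the 5 numbers. Alternatives were each array left out, the replicate number as a block, a minimum mean of 5 log2, centring, quantile and cyclic loess normalisation, array weights, trend and robust settings, RNA quality as a covariate, and 1 probe set per gene. The block and the weights without vehicle replicate 5, and other lists with each array left out, were added after seeing the data.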

Additional observations from a re-analysis of the deposited data

Results flagged for a closer look

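Vehicle replicate 5 lay far below the other 4 vehicle arrays, by a gap of over 0.71 of the group's range, at 5 of the 36 groups of 5 values examined, where chance gives about 1 in 20. It was at 13.40 for B2m 1449289_a_at (others 13.70 to 13.80), 12.55 for B2m 1452428_a_at (13.22 to 13.39), 10.28 for Tapbp 1421812_at (12.80 to 13.11), 6.50 for Psmb8 1422962_a_at (10.80 to 11.84) and 7.30 for Psme1 1417056_at (11.37 to 12.62). The 5 share 1 array and are not independent. No baricitinib array and none of the 3 subunit pairs was singled out in this way.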

How the results depend on the processing

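With array weights 4 of the 15 probe sets passed (B2m 1449289_a_at and 1452428_a_at, Nlrc5 and Psmb8 1444619_x_at) and 9676 of all (21.5%). On the 9 arrays without vehicle replicate 5, weights gave 3 and 7869 (17.5%), and the replicate block 1 (Psmb8 1444619_x_at) and 1009 (2.24%). With all arrays the block gave 0 and 0. Leaving out each array gave 0 of the 15 throughout and 0 to 848 of all, the highest without vehicle replicate 4, with 12 without baricitinib replicate 5. The median of the 15 differences stayed negative, from -0.38 to -0.12 with arrays left out and at -0.83 with RNA quality as a covariate, which rested on the vehicle arrays because the gap hardly varied in the baricitinib group. The 12 with a mean of at least 5 log2 had a median of -0.083, where all 28752 such probe sets had 0.16. With 1 probe set per gene the median was -0.058 for 9, where all 18193 genes had 0.005.

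The paired sign-flip test of the subunit pairs, with the replicate block, gave adjusted p = 0.0938 (Psmb8), 0.125 (Psmb9) and 0.0938 (Psmb10), by exact permutation within numbers. With 5 pairs this test cannot give an unadjusted p under 0.0625 and so could not pass. With arrays left out the pairs ranged from -1.64 to -0.84, from -1.90 to -0.97 and from -1.28 to -0.62, past the threshold without baricitinib replicate 5 alone. The mean of all probe sets of each gene gave -1.89 for Psmb8 minus Psmb5 (exact permutation adjusted p = 0.0238).

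Signs turned as follows, and the cause was not tested. Centring and quantile normalisation turned Tapbp 1421812_at (-0.035 and -0.086). Cyclic loess turned it (-0.070), Psmb8 1422962_a_at (-0.10), Psmb10 (-0.091), Tap1 1449803_x_at (0.070) and Tap1 1420274_at (0.20). Array weights turned Tapbp 1421812_at (-0.54), Psmb8 1422962_a_at (-0.85), Psmb10 (-0.44) and Psme1 (-0.017). The RNA quality covariate turned these 4 (-0.83, -1.67, -1.30 and -0.93) and Tapbp 1450378_at (-0.75). Without vehicle replicate 5 the block gave for these 5 -0.66, -1.15, -0.75, -0.25 and -0.29, and weights -0.58, -0.90, -0.49, -0.075 and -0.0096. With each array left out, Tap2 ranged from -0.72 to 0.24 and Psmb9 from -0.81 to 0.41, positive where baricitinib replicate 1 or 2, or vehicle replicate 2 or 4, was left out. Tapbp 1421812_at ranged from -0.50 to 0.21, Tapbp 1450378_at from -0.091 to 0.46, Psmb8 1422962_a_at from -0.81 to 0.56, Psmb10 from -0.38 to 0.58 and Psme1 from -0.044 to 1.28, negative without vehicle replicate 5. All of these but Psme1 were also negative without baricitinib replicate 5, and Psmb8 1422962_a_at and Tapbp 1421812_at without baricitinib replicate 4. Both B2m probe sets, Tap1 1416016_at and 1448177_at, Nlrc5 and Psmb8 1444619_x_at were negative in every alternative in which they were fitted. With the RNA quality covariate, where 0 of the 15 passed, Nlrc5 was at -0.73 (limma unadjusted p = 0.100, against 0.00566 with no covariate). Psmb8 1444619_x_at was then at -1.07 (limma unadjusted p = 0.0116, against 0.00175).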

Other observations

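Of 5 measured genes for proteins that resemble class I heavy chains, most of which pair with beta-2 microglobulin, 3 had a positive difference with all arrays and without vehicle replicate 5 (medians 0.41 and 0.32). Fcgrt, the neonatal Fc receptor, was at 10.15, 9.84, 10.76, 10.74 and 10.30 in baricitinib replicates 1 to 5 and at 9.21, 9.69, 9.20, 9.86 and 7.44 in vehicle replicates 1 to 5. The groups touched at baricitinib replicate 2 and vehicle replicate 4 alone, and the difference was 1.28 ± 0.43 (SE, limma adjusted p = 0.260) and 0.87 without vehicle replicate 5 (limma adjusted p = 0.0819). Cd1d1, which presents lipids, differed by 0.67 and 0.42 and Mr1, which presents small metabolites, by 0.41 and 0.32. Hfe, a regulator of iron uptake, differed by -0.23 and -0.53, and Azgp1, a secreted protein of this fold, by -0.18 and -0.13.

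The genes nearest in profile to the mean of the 9 standardised profiles were Samhd1, Parp9, Uba7, H2-K1 and Lcp2 over 10 arrays (root mean square distance 0.15 to 0.16 SD units, 18193 genes compared). Without vehicle replicate 5 they were Ifi27l2a, C130026I21Rik, Rnf31, H2-K1 and Samhd1 (0.16 to 0.19). H2-K1 and Samhd1 were in both sets. Nlrc5 was far from that mean, at 1.07 with all arrays and 0.66 without vehicle replicate 5, where Tap1 was at 0.21 and 0.17. Psme1, at 0.59 and 0.63, and B2m, at 0.60 and 0.56, were nearly as far as Nlrc5 without that array. All genes of an array share its RNA quality, so likeness is a description of these arrays.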
